A study of Mus musculus with 14 samples.

Results

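The collagen chain genes of the mouse are described here across transplanted gastric tumours. They were taken by name, as every entry whose symbol is Col, a number, the letter a and a number (such as Col1a1), which gave 44 genes of 24421 entries in the deposited count tables. The rule uses the name alone and no measured value. By the class of the collagen they belong to, 11 were fibrillar, 6 formed the basement membrane network, 7 beaded filaments, 3 short-chain networks and 1 anchoring fibrils. A further 9 were FACITs (fibril-associated collagens with interrupted helices) or FACIT-like, 4 spanned the cell membrane, 2 were multiplexins of the basement membrane zone, and Col26a1 stood outside these classes. Polyadenylated RNA was sequenced from 12 tumours in 4 groups of 3: orthotopic TMPC tumours, grown in the organ of origin, and subcutaneous TMPC, subcutaneous TMP and subcutaneous TM tumours, grown under the skin. All 12 were collected 2 months after transplantation. TM, TMP and TMPC are not written out in the labels and serve as names here. The labels also give no strain, age, cell line or clone of origin, and no treatment. They leave unsaid whether each replicate is another animal. If not, a p-value reflects only how much these libraries vary, which could be technical. Another 2 samples of the series are single-cell libraries and were not used here.

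Collagens are the most abundant proteins of the extracellular matrix. Each is built of chains wound into a helix, and chains of the same type assemble with each other, so that the genes of partner chains are often expressed together. Fibrillar collagens give tissue its tensile strength and are made mostly by fibroblasts, type IV collagen forms the sheet under epithelium and around vessels, and type VI links cells to the surrounding fibrils. In tumours the deposition of fibrillar collagen by stromal fibroblasts is a hallmark of the desmoplastic reaction.

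Total counts ran from 16584781 to 21107310 per library, so that 3 counts, the most that a count of 0 allows, correspond to 0.128 to 0.207 CPM (counts scaled to a library size of 1000000 and adjusted with TMM factors over the 12 libraries). Several libraries stood apart from their group. Subcutaneous TM replicate 2 had 53.2 CPM of the epithelial marker Epcam, against 116 to 667 CPM in the other 11 libraries. Its adipocyte markers summed to 3706 CPM, against 15.9 to 108 CPM elsewhere. Liver markers summed to 7406 CPM in orthotopic TMPC replicate 3 and to at most 94.0 CPM elsewhere. In subcutaneous TMPC replicate 1 the epithelial markers summed to 1017 CPM, against 2426 and 3384 CPM in the other replicates of its group. Markers of gastric epithelium (Cldn18, Tff1, Tff2, Muc5ac, Muc6, Gkn1 and Gkn2) summed to 3832 to 6263 CPM in orthotopic TMPC tumours. They summed to 0.218 to 0.749 CPM in subcutaneous TMPC, 0.722 to 1.47 CPM in subcutaneous TMP and 1.24 to 26.0 CPM in subcutaneous TM tumours, so that these defining markers of the labelled tissue were close to absent outside the orthotopic group. In bulk tissue fewer cells of a type and less RNA per cell cannot be told apart, which holds for every value below.

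All 44 collagen chain genes had a count in at least 1 library, 28 had at least 10 counts in every library, and 7 had a count of 0 in at least 1. Over the 12 libraries 17 averaged at least 100 CPM, 7 between 10 and 100, 16 between 1 and 10, and 4 under 1 CPM. Together they took up 1.17%, 1.22% and 2.57% of all counts in the orthotopic TMPC tumours and 0.962%, 0.892% and 0.645% in the subcutaneous TMPC tumours. The share was 0.750%, 1.56% and 1.27% in subcutaneous TMP and 1.86%, 0.384% and 2.23% in subcutaneous TM tumours. The 3 orthotopic shares lay above the 3 subcutaneous TMPC shares, whereas subcutaneous TM held both the lowest share of its site, in replicate 2, and the highest. Mean shares were 1.65 ± 0.792% in orthotopic TMPC, 0.833 ± 0.167% in subcutaneous TMPC, 1.19 ± 0.410% in subcutaneous TMP and 1.49 ± 0.979% in subcutaneous TM (SD, n = 3 each). Col1a1, Col1a2 and Col3a1 alone accounted for 43.8% to 71.9% of the collagen counts of a library.

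**Figure D1:**
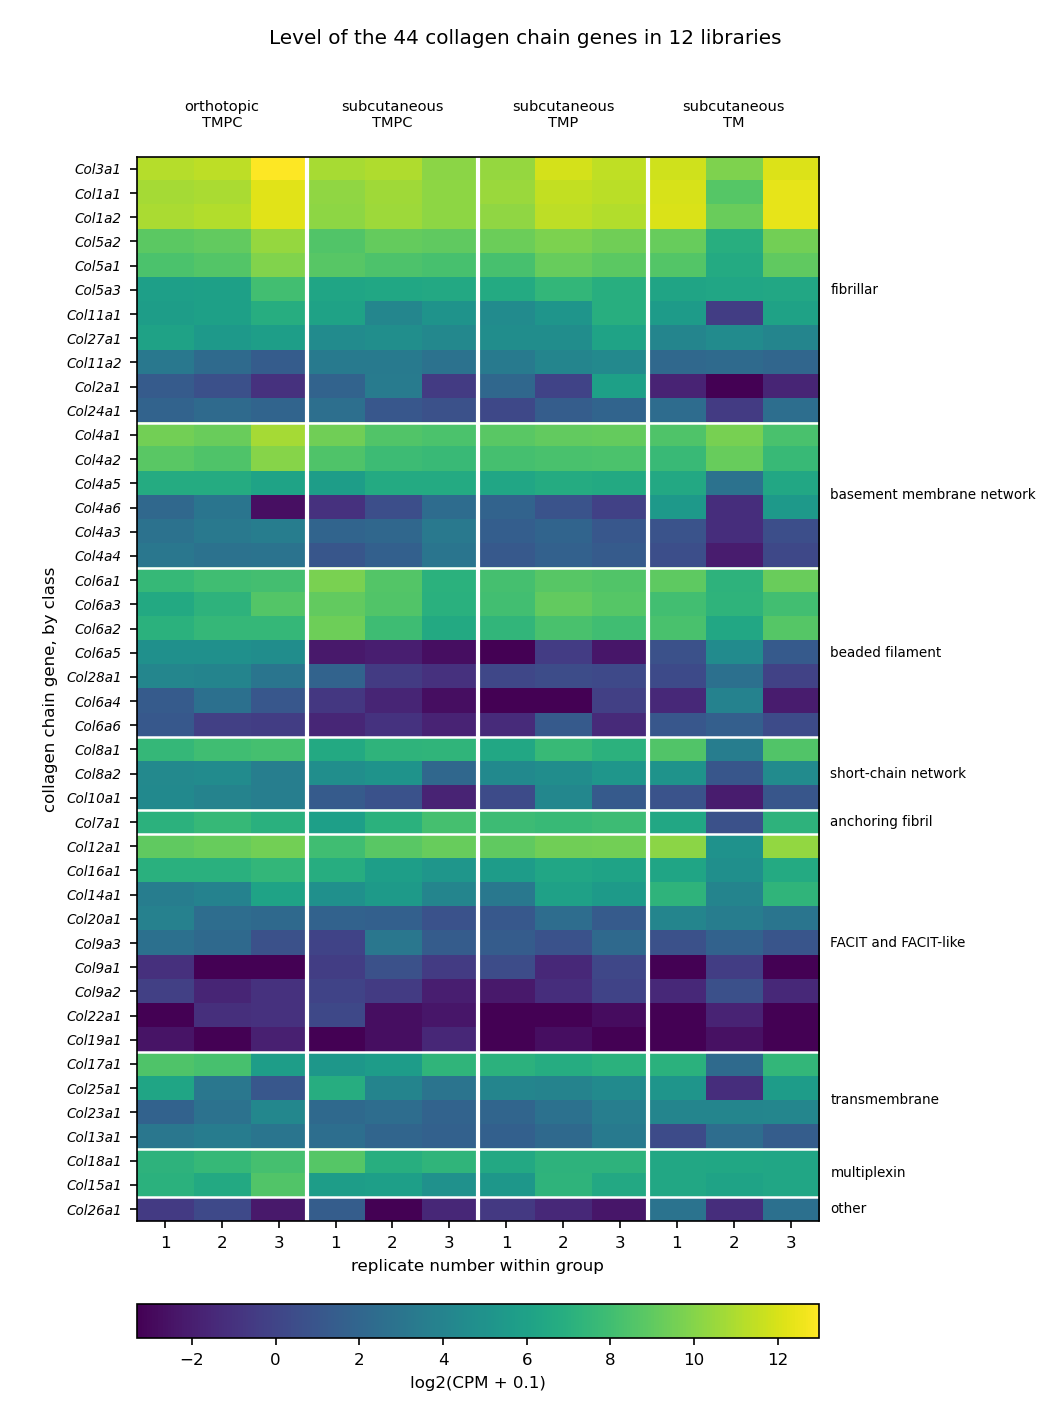
Level of each of the 44 collagen chain genes, in rows by class, in the 12 libraries, in columns by group, as log2(CPM + 0.1). Col3a1, Col1a1 and Col1a2 are the brightest rows in most libraries, and subcutaneous TM replicate 2 is darker than its group in many rows but brighter in Col4a1, Col4a2, Col6a5 and Col6a4.

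Levels of different genes were set side by side as CPM per kilobase of union exon length. On that scale Col1a1, a chain of the main fibrillar collagen of stroma and bone, averaged 375 CPM per kb over the 12 libraries, and Col3a1, the chain of the finer fibrils of distensible organs, averaged 297. Col1a2, the partner of Col1a1, averaged 195, and Col6a1 and Col4a1 followed with 84.3 and 84.1 CPM per kb. Next came Col5a2 with 64.8, Col4a2 with 57.8, Col5a1 with 50.4, Col12a1 with 41.3 and Col6a2 with 30.9 CPM per kb. The union length of Col1a2, 12.426 kb, is far above that of its longest transcript, 5.348 kb, so that its place relative to Col1a1 and Col3a1 depends on the length used. Fibrillar genes made up 44.3% to 76.9% of the summed collagen level per kb, and the basement membrane genes 3.79% to 36.3%, with the low fibrillar and the high basement membrane value both in subcutaneous TM replicate 2. In subcutaneous TM replicates 1 and 3 the basement membrane share was 5.02% and 3.79%. Beaded filament genes reached their highest share, 26.3%, in subcutaneous TMPC replicate 1.

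Among the fibrillar genes Col1a1 (chr11:94936224-94953042 on mm10, plus strand) had 1728, 1942 and 4908 CPM in orthotopic TMPC, 1241, 1651 and 1208 CPM in subcutaneous TMPC, 1477, 2921 and 2498 CPM in subcutaneous TMP and 4173, 416 and 5397 CPM in subcutaneous TM tumours. Col1a2 had 1892, 2233 and 4850 CPM in orthotopic TMPC, 1163, 1573 and 1175 CPM in subcutaneous TMPC, 1223, 2675 and 2208 CPM in subcutaneous TMP and 4176, 608 and 5333 CPM in subcutaneous TM. Both were thus high in orthotopic replicate 3 and in TM replicates 1 and 3, and lowest in TM replicate 2. Col3a1 had 2287, 2637 and 8097 CPM in orthotopic TMPC, 1843, 2136 and 1142 CPM in subcutaneous TMPC, 1337, 3832 and 2713 CPM in subcutaneous TMP and 3630, 902 and 4424 CPM in subcutaneous TM. Its highest library was orthotopic replicate 3 and its lowest TM replicate 2. Col5a1 and Col5a2 encode chains of type V collagen, which starts the assembly of type I fibrils. Col5a1 had 336, 397 and 957 CPM in orthotopic TMPC, 424, 350 and 307 CPM in subcutaneous TMPC, 308, 587 and 465 CPM in subcutaneous TMP and 396, 102 and 507 CPM in subcutaneous TM. Col5a2 had 473, 534 and 1344 CPM in orthotopic TMPC, 383, 560 and 519 CPM in subcutaneous TMPC, 626, 870 and 701 CPM in subcutaneous TMP and 595, 121 and 731 CPM in subcutaneous TM. For both the orthotopic and subcutaneous TMPC ranges overlapped, and TM replicate 2 was again the lowest library.

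The rarer fibrillar genes differed more between libraries of a group. Col11a1, whose product nucleates cartilage fibrils and is also made in tumour stroma, ranged from 0.690 CPM in subcutaneous TM replicate 2 to 120 CPM in subcutaneous TMP replicate 3. Col2a1 (chr15:97975602-98004695, minus strand), the main chain of cartilage fibrils, had 2.51, 1.45 and 0.395 CPM in orthotopic TMPC and 3.57, 11.0 and 0.615 CPM in subcutaneous TMPC. It had 4.33, 0.879 and 61.1 CPM in subcutaneous TMP and 0.208, 0 and 0.226 CPM in subcutaneous TM tumours. Nearly all of its signal in the TMP group therefore came from replicate 3, with 1289 counts, and all 3 TM libraries held at most 5 counts. The cartilage proteoglycan gene Acan was likewise highest in TMP replicate 3, with 105 CPM, against 37.1 and 15.0 CPM in TMP replicates 1 and 2, and at most 0.135 CPM in the TM libraries. Hapln1, Comp and Matn3 were also highest in TMP replicate 3, with 7.16, 4.46 and 3.75 CPM. Other cartilage markers did not follow: Sox9 had 78.1, 40.5 and 43.1 CPM in TMP, and Chad had 0.842, 1.37 and 2.23 CPM in TMP, against 52.8, 2.48 and 39.7 CPM in TM, with a log2 fold change of -4.45 (adjusted p = 0.0190 by edgeR). The defining marker Matn1 was at or near 0, with at most 0.383 CPM in any library. Of the 6 cartilage markers tested 1, Acan, was higher in TMP than in TM and 1, Chad, lower, and the list summed to 58.2 to 165 CPM in TMP and 15.5 to 79.6 CPM in TM. The part of cartilage-like RNA in the Col2a1 values was not tested.

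The basement membrane genes Col4a1 and Col4a2, whose products form the common type IV network, followed each other across libraries. Col4a1 had 720, 603 and 1773 CPM in orthotopic TMPC, 701, 375 and 324 CPM in subcutaneous TMPC, 448, 542 and 558 CPM in subcutaneous TMP and 359, 815 and 319 CPM in subcutaneous TM. Col4a2 had 441, 355 and 1050 CPM in orthotopic TMPC, 366, 235 and 216 CPM in subcutaneous TMPC, 284, 315 and 335 CPM in subcutaneous TMP and 209, 585 and 199 CPM in subcutaneous TM. Unlike Col1a1, Col1a2, Col3a1, Col5a1 and Col5a2, both were higher in TM replicate 2 than in the other TM libraries, and endothelial markers summed to 823 CPM there, against 248 and 223 CPM in TM replicates 1 and 3. The part of vessel RNA in this difference was not tested. Of the chains of specialised basement membranes, Col4a5 had 7.11 CPM in TM replicate 2 and 53.2 to 106 CPM in the other 11 libraries, and Col4a3 and Col4a4 stayed at or under 11.8 and 8.60 CPM.

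**Figure D2:**
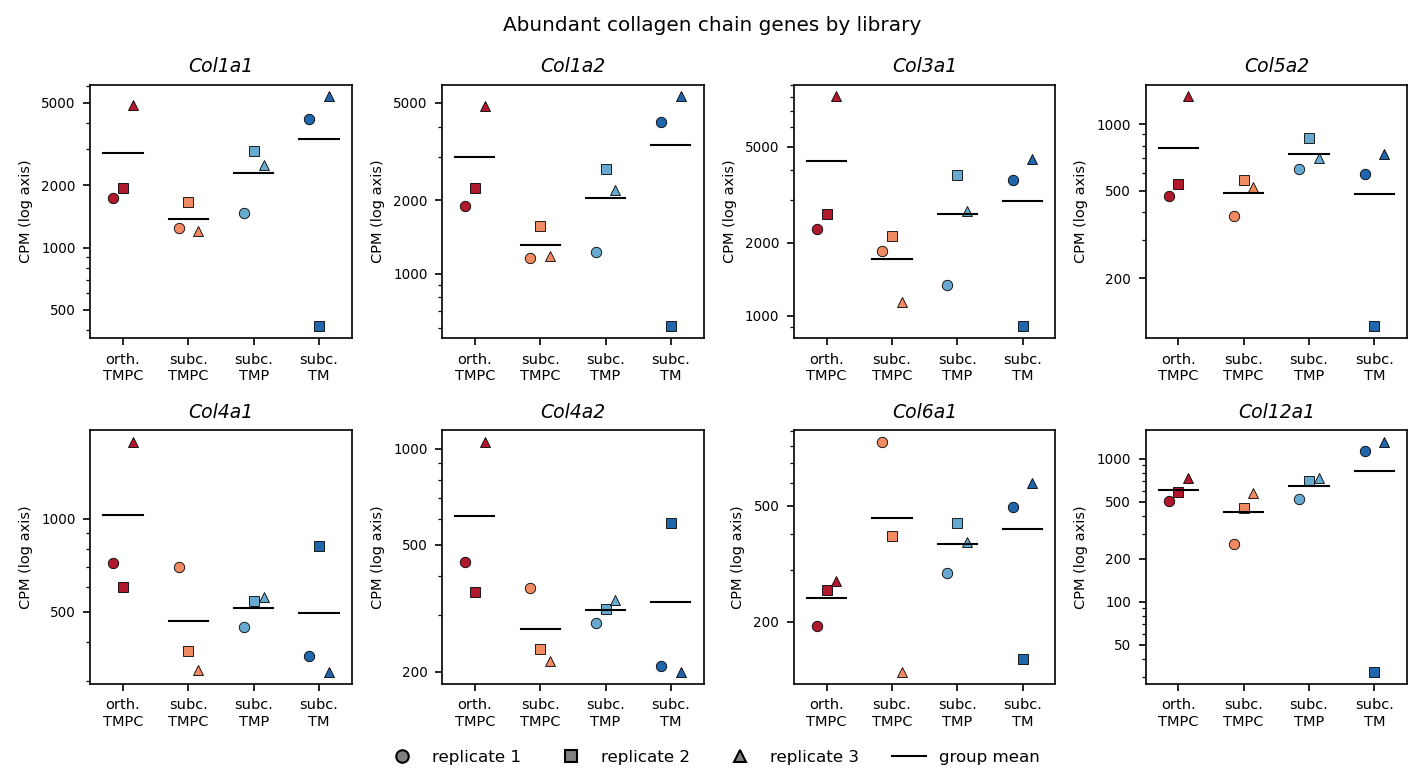
CPM on a log axis of 8 abundant collagen chain genes in each library, with replicates as symbols and the group mean as a line. Col1a1, Col1a2, Col3a1, Col5a2 and Col12a1 are lowest in subcutaneous TM replicate 2, where Col4a1 and Col4a2 are the highest of their group, and orthotopic TMPC replicate 3 is the highest library for Col3a1, Col4a1, Col4a2 and Col5a2.

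Of the beaded filament genes, Col6a1 had 193, 256 and 276 CPM in orthotopic TMPC, 828, 394 and 134 CPM in subcutaneous TMPC, 294, 437 and 374 CPM in subcutaneous TMP and 496, 149 and 600 CPM in subcutaneous TM. Its partner Col6a2 had 139, 187 and 189 CPM in orthotopic TMPC, 676, 245 and 97.6 CPM in subcutaneous TMPC, 169, 313 and 255 CPM in subcutaneous TMP and 321, 86.9 and 408 CPM in subcutaneous TM. The subcutaneous TMPC libraries spanned the orthotopic values of both genes, from above in replicate 1 to below in replicate 3. Serpinh1, the collagen chaperone, was also highest in subcutaneous TMPC replicate 1, with 1102 CPM, against 218 and 127 CPM in replicates 2 and 3. Col12a1, a FACIT that coats type I fibrils, had 505, 591 and 734 CPM in orthotopic TMPC, 253, 450 and 574 CPM in subcutaneous TMPC, 522, 695 and 732 CPM in subcutaneous TMP and 1141, 32.2 and 1313 CPM in subcutaneous TM. Its range in TM alone covered that of all other groups. A further pair of chains anchors epithelium. Col7a1, the chain of the anchoring fibrils below stratified epithelium, had 142, 191 and 131 CPM in orthotopic TMPC, 58.2, 134 and 284 CPM in subcutaneous TMPC, 231, 207 and 233 CPM in subcutaneous TMP and 88.9, 1.52 and 146 CPM in subcutaneous TM. Col17a1, the transmembrane collagen of hemidesmosomes, had 356, 304 and 53.5 CPM in orthotopic TMPC, 40.1, 52.3 and 160 CPM in subcutaneous TMPC, 144, 111 and 135 CPM in subcutaneous TMP and 136, 4.90 and 181 CPM in subcutaneous TM. Each was lowest in TM replicate 2, where the squamous markers Trp63, Krt5, Krt14, Krt6a and Dsg3 summed to 21.4 CPM, and within subcutaneous TMPC highest in replicate 3, where they summed to 7481 CPM, against 674 and 2812 CPM in replicates 1 and 2. Col17a1 was highest in orthotopic TMPC replicates 1 and 2, where the squamous markers summed to 3109 and 2724 CPM, against 4013 to 4969 CPM in subcutaneous TMP. The general epithelial markers were also lowest in TM replicate 2, with a sum of 244 CPM. The part of squamous or other epithelium in the Col7a1 and Col17a1 values was not tested. At the other end, Col19a1 and Col22a1 had at most 0.256 and 1.04 CPM in any library and passed no filter on low counts.

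Ratios between partner chains were taken within each library, as counts per kb of union exon, so that they do not depend on the scaling between libraries. Col1a2 over Col1a1 lay between 0.437 and 0.773, a 1.77-fold span, while Col1a1 itself spanned 13-fold. Its median of 0.518 became 1.09 with the longest transcript as length, so the level of the ratio depends on the gene model but its constancy does not. Col4a2 over Col4a1 lay between 0.588 and 0.810, a 1.38-fold span against 5.56-fold for Col4a1. Col6a2 over Col6a1 lay between 0.303 and 0.429, a 1.42-fold span against 6.17-fold for Col6a1. In these 3 pairs the ratio thus varied far less than the levels did. Col5a2 over Col5a1 varied more, from 0.800 in subcutaneous TMPC replicate 1 to 1.80 in subcutaneous TMP replicate 1, a 2.25-fold span. Col3a1 over Col1a1, chains of different collagens, lay between 0.548 in TM replicate 3 and 1.45 in TM replicate 2. This was a 2.65-fold span, while Col3a1 itself spanned 8.98-fold. A ratio steadier than the levels was thus not limited to partner chains. The other type IV pairs varied more as well. Col4a4 over Col4a3, both rare, lay between 0.376 in TM replicate 2 and 1.16 in orthotopic TMPC replicate 1, a 3.08-fold span. Col4a6 over Col4a5 was 0.0356, 0.0635 and 0.000666 in orthotopic TMPC, 0.00640, 0.0119 and 0.0455 in subcutaneous TMPC, 0.0361, 0.0138 and 0.00719 in subcutaneous TMP and 0.421, 0.0409 and 0.414 in subcutaneous TM. Only TM replicates 1 and 3 stood above 0.0635, and the gene that differed was Col4a6, with 45.0 and 43.3 CPM there and at most 7.91 CPM in the other 10 libraries.

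**Figure D3:**
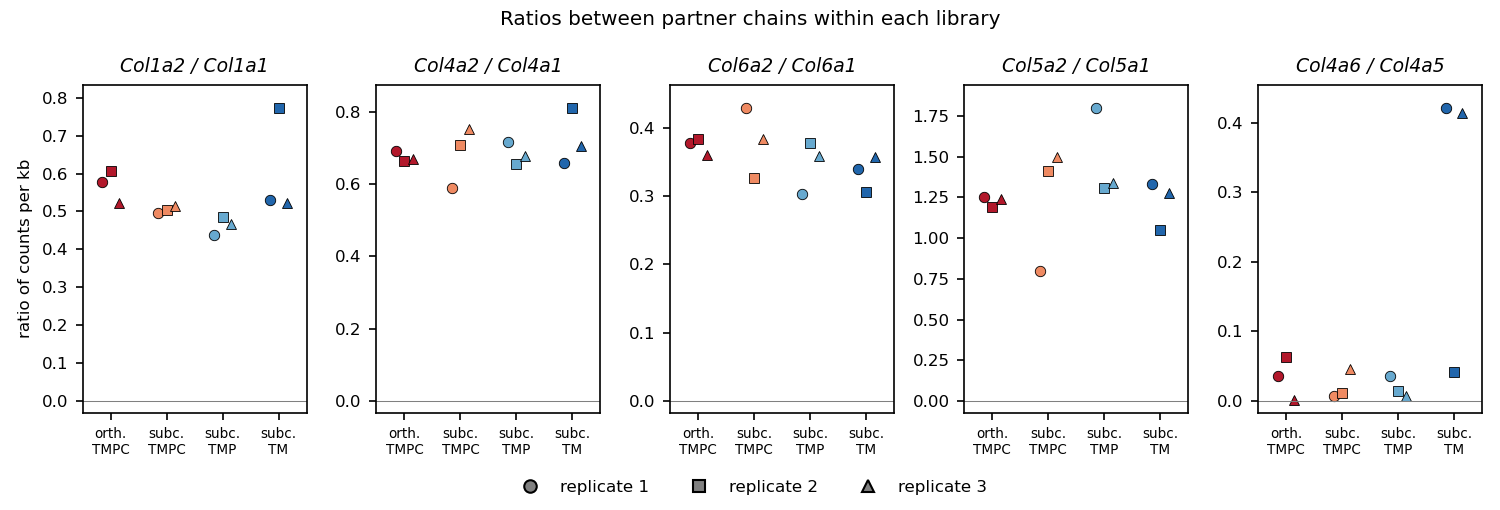
Ratio of partner chains in each library, as counts per kb of union exon, for 5 pairs, with replicates as symbols. The Col1a2, Col4a2 and Col6a2 ratios stay in narrow bands in all groups, whereas Col4a6 over Col4a5 is 0.421 and 0.414 in subcutaneous TM replicates 1 and 3 and at most 0.0635 in the other libraries.

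The type IV genes lie in head-to-head pairs. Col4a1 (chr8:11198423-11312826, minus strand) and Col4a2 (chr8:11312805-11449287, plus strand) start 21 bp apart, and their promoter windows, 250 bases before to 50 after the start, share 78 bp. Col4a5 (chrX:141475385-141689234, plus strand) and Col4a6 (chrX:141165403-141474076, minus strand) also point away from each other. The RefSeq starts of their windows lie 1343 bp apart, and the windows share 0 bp. Col4a3 (chr1:82586921-82722059, plus strand) and Col4a4 (chr1:82448423-82586849, minus strand) lie close and head to head as well. The ratio of these 2 rare genes spanned 3.08-fold. The part of promoter position in the ratios was not tested. The windows of Col4a1 and Col4a2, at chr8:11312777-11313076 and chr8:11312555-11312854, are shown because this pair kept its ratio. They are read 5′ to 3′ on the strand of each gene, from RefSeq on GRCm38.p6, and capitals mark CCAAT and GGGCGG on either strand.
Col4a1: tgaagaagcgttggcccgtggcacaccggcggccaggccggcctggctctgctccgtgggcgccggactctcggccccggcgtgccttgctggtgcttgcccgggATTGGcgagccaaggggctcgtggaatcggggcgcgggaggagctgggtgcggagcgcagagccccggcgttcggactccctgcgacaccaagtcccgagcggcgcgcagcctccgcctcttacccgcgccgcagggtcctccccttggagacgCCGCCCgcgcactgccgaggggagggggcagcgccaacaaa
Col4a2: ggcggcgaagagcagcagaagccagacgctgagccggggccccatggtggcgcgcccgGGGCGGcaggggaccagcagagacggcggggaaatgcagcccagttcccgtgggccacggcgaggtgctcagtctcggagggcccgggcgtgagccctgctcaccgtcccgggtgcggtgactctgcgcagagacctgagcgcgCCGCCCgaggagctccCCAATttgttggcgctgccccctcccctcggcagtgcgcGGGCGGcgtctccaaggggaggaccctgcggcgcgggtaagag
The last 78 bases of each window are the shared part, read on opposite strands. Each window holds CCAAT at 1 place, and GGGCGG stands at 1 place in the Col4a1 window and at 3 in that of Col4a2. The GGGCGG place of the Col4a1 window lies in the shared part and is the same site as 1 of the 3 of Col4a2. RefSeq windows were found for 35 of the 44 genes, 38 windows in all. Of these, 23 (60.5%) hold GGGCGG on either strand, 13 (34.2%) CCAAT and 5 (13.2%) TATAAA, against 35.7%, 37.4% and 13.6% of the 32851 windows of all genes. Matches on opposite strands may share letters, and each is counted. A match is a description of the letters, not of a bound site.

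The comparison of sites asks what differs between TMPC tumours grown orthotopically and under the skin. Of 42 collagen chain genes tested, 8 were higher in orthotopic TMPC tumours by the quasi-likelihood test of edgeR, after Benjamini-Hochberg adjustment at 0.05, which is 19.0% of them, and 14.0% of all 15123 genes tested were. None (0) was lower by edgeR, against 13.8% of all genes, and DESeq2 called 14 of 43 higher (32.6%) and 0 lower, against 20.4% and 18.4% of all genes. At an unadjusted p under 0.05, edgeR gave 16 collagen chain genes (38.1%, against 44.1% of all genes), all with a positive fold change. The 6 libraries did not overlap for 14 genes that were higher in orthotopic tumours (33.3%, against 22.3% of all genes) and for Col9a1, which was lower (2.38%, against 26.5%). By the adjusted p of either tool and by non-overlap the share higher was above that of all genes, least so for edgeR, and the share lower was below it. The median log2 fold change of the 42 genes was 0.80, with 31 positive and 11 negative, and that of all genes tested was 0.05.

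Col6a5 (chr9:105856078-105960643, minus strand), a chain that can stand in for Col6a3 in type VI collagen, was the most changed. It had 679, 641 and 446 counts, or 28.9, 29.0 and 25.2 CPM, in orthotopic TMPC, against 2, 3 and 1 counts, or 0.115, 0.163 and 0.0512 CPM, in subcutaneous TMPC tumours. Even its lowest orthotopic library was far above all 3 subcutaneous TMPC libraries, which lay at or under the limit of 3 counts. Its log2 fold change was 7.97 ± 0.43 (SE, adjusted p = 0.00223 by edgeR), and the ratio of the summed counts per library size was 257, with an exact 95% interval of 118 to 701 that covers counting error only. Its neighbour Col6a4 (chr9:105989454-106096783, minus strand), another such chain, had 2.43, 6.33 and 2.03 CPM in orthotopic TMPC, against 0.519, 0.218 and 0.0512 CPM in subcutaneous TMPC. The groups did not overlap, and its log2 fold change was 3.83 ± 0.88 (SE, adjusted p = 0.0249 by edgeR). The third gene of this cluster, Col6a6 (chr9:105687809-105828160, minus strand), had 2.17, 0.769 and 0.677 CPM in orthotopic TMPC, against 0.231, 0.435 and 0.205 CPM in subcutaneous TMPC. It did not pass the threshold, with a log2 fold change of 2.11 ± 0.67 (SE, adjusted p = 0.0586 by edgeR). The main chains Col6a1, Col6a2 and Col6a3 did not pass either, and the log2 fold change of Col6a1 was -0.83 ± 0.59 (SE, adjusted p = 0.316 by edgeR). Outside the TMPC tumours, the library nearest to the orthotopic Col6a5 level was subcutaneous TM replicate 2, with 23.3 CPM, which also had the highest Col6a4 level of all, 14.9 CPM.

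The promoter windows of these 3 neighbouring genes, at chr9:106096642-106096941 for Col6a4, chr9:105960594-105960893 for Col6a5 and chr9:105828036-105828335 for Col6a6, are shown because the genes lie side by side on the same strand and had fold changes of the same sign. They come from RefSeq on GRCm38.p6, read 5′ to 3′ on the minus strand, with the same motifs in capitals.
Col6a4: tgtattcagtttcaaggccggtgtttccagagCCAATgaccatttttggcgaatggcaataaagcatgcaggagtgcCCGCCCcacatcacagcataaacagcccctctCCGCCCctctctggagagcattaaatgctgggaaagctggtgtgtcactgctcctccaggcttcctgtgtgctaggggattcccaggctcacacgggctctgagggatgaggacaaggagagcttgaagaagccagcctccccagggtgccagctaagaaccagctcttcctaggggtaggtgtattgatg
Col6a5: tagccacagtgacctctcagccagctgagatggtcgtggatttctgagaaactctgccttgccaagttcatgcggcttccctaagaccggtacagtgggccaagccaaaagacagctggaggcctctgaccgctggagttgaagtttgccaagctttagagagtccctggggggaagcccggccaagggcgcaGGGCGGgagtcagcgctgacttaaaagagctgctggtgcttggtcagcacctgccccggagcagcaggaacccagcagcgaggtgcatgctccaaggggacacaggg
Col6a6: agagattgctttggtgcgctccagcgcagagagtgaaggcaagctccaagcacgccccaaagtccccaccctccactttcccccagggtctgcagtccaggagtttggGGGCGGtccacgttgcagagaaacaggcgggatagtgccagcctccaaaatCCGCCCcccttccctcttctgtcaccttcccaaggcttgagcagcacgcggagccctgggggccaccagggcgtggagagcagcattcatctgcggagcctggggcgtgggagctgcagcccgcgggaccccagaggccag
Each holds GGGCGG on some strand, at 2 places in Col6a4, 1 in Col6a5 and 2 in Col6a6. CCAAT stands at 1 place in the Col6a4 window, and TATAAA at none in any of these (0).

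Of the other genes past the threshold, Col27a1 (chr4:63214004-63334991, plus strand), a minor fibrillar chain known from cartilage, had 66.0, 45.0 and 56.1 CPM in orthotopic TMPC, against 23.2, 26.2 and 19.8 CPM in subcutaneous TMPC. All 3 orthotopic values lay well above the subcutaneous TMPC range, and the log2 fold change was 1.34 ± 0.21 (SE, adjusted p = 0.0110 by edgeR). Col10a1 (chr10:34389981-34397085, plus strand), a short-chain collagen of hypertrophic cartilage, had 21.2, 15.8 and 12.2 CPM in orthotopic TMPC, against 2.48, 1.63 and 0.205 CPM in subcutaneous TMPC. Its groups were far apart, with a log2 fold change of 3.59 ± 0.82 (SE, adjusted p = 0.0247 by edgeR). The gene lies within Nt5dc1, which runs on the other strand. Since the use of strand in counting is not known, reads of the 2 genes cannot be told apart. Nt5dc1 had 28.8 ± 6.48 CPM in orthotopic TMPC and 21.3 ± 3.81 CPM in subcutaneous TMPC (SD, n = 3 each), a difference that did not pass the threshold (adjusted p = 0.172 by edgeR).

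Col15a1 (chr4:47208161-47313167, plus strand), a multiplexin of vessel and muscle basement membranes, had 134, 94.4 and 369 CPM in orthotopic TMPC, against 53.2, 57.6 and 30.0 CPM in subcutaneous TMPC. Replicate 3 was the highest orthotopic library, but the others also lay above the subcutaneous TMPC range. The log2 fold change was 2.15 ± 0.56 (SE, adjusted p = 0.0338 by edgeR), and it was 1.35 without orthotopic replicate 3. Col28a1 (chr6:7997808-8192617, minus strand), a beaded filament collagen known from peripheral nerve, had 17.8, 16.3 and 7.96 CPM in orthotopic TMPC, against 3.57, 0.599 and 0.410 CPM in subcutaneous TMPC. The groups were apart, with a log2 fold change of 3.27 ± 0.91 (SE, adjusted p = 0.0408 by edgeR), which was 4.83 without subcutaneous TMPC replicate 1. Schwann cell and nerve markers summed to 20.1, 21.4 and 33.0 CPM in orthotopic TMPC and 52.6, 17.9 and 14.7 CPM in subcutaneous TMPC, where the ranges overlapped. The remaining 2 genes past the threshold, Col8a1 and Col13a1, were named after their values were seen.

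Col8a1, a short-chain collagen of vessels, had 187, 257 and 286 CPM in orthotopic TMPC, against 95.4, 156 and 161 CPM in subcutaneous TMPC, with a log2 fold change of 0.89 ± 0.26 (SE, adjusted p = 0.0482 by edgeR). Col13a1, a transmembrane collagen of cell adhesion sites, had 8.90, 11.3 and 7.96 CPM in orthotopic TMPC, against 5.71, 3.86 and 3.28 CPM in subcutaneous TMPC. Its log2 fold change was 1.2 ± 0.36 (SE), and its adjusted p by edgeR lay just under the threshold of 0.05. Both pairs of groups were close without overlapping. The abundant fibrillar genes did not pass. Col1a1, Col1a2 and Col3a1 were higher in every orthotopic library than in any subcutaneous TMPC library, with log2 fold changes of 1.13 ± 0.43, 1.26 ± 0.39 and 1.41 ± 0.54 (SE, adjusted p = 0.0933, 0.0543 and 0.0939 by edgeR). Without orthotopic replicate 3, the library with the liver markers, these fold changes were 0.48, 0.72 and 0.59, and DESeq2 called all 3 genes with every library in. Of the 6 basement membrane genes 0 passed, although all 6 had positive fold changes, with 1.21 ± 0.50 for Col4a1 and 1.24 ± 0.45 for Col4a2 (SE, adjusted p = 0.110 and 0.0806 by edgeR). The log2 fold changes of Col4a1 and Col4a2 were 0.56 and 0.61 without orthotopic replicate 3.

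These calls rested on few libraries. Col6a5 and Col27a1 stayed past the threshold in each of 11 alternative fits. Without orthotopic TMPC replicate 1, orthotopic TMPC replicate 2 or subcutaneous TMPC replicate 2 they were the 2 calls kept of 8, and without subcutaneous TMPC replicate 3 Col10a1 was kept as well. With those libraries left out, the share of all genes called higher was 4.30%, 1.87%, 4.30% and 6.63%. Markers of several cell types were counted between the sites with every library in, where 14.0% of all genes tested were higher and 13.8% lower. With lists this short, such counts are no result about a list. Of the squamous and adipocyte markers tested, 0 of 5 and 0 of 3 passed in either direction. Fibroblast markers summed to 2609 to 5883 CPM in orthotopic TMPC and 1809 to 3062 CPM in subcutaneous TMPC, with 2 of 10 tested higher. Of the 10, 9 had positive fold changes and 1 a negative one. Fn1 was the largest part of these sums, with 1851, 1584 and 4093 CPM in orthotopic TMPC and 1564, 2541 and 1512 CPM in subcutaneous TMPC. Pericyte and smooth muscle markers summed to 776 to 1826 CPM in orthotopic TMPC and 495 to 596 CPM in subcutaneous TMPC, with 4 of 10 higher. Endothelial markers summed to 221 to 567 CPM in orthotopic TMPC and 152 to 189 CPM in subcutaneous TMPC, with 1 of 8 higher. Epithelial markers summed to 4414 to 7204 CPM in orthotopic TMPC and 1017 to 3384 CPM in subcutaneous TMPC, with 3 of 7 higher. All 3 mesothelial markers tested were higher, but 1 of them, Krt19, is also among the epithelial markers counted. The mesothelial markers Lrrn4 and Upk3b were too rare to be tested, with at most 1.7 and 1.58 CPM in any library. Leukocyte markers summed to 177 to 705 CPM in orthotopic TMPC and 86.6 to 145 CPM in subcutaneous TMPC, with 2 of 4 higher, as were 3 of 4 plasma cell markers. Skeletal muscle markers summed to 3.30 to 7.62 CPM in orthotopic TMPC and 26.2 to 214 CPM in subcutaneous TMPC, with 5 of 6 lower. Their part in the collagen differences was not tested.

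**Figure D4:**
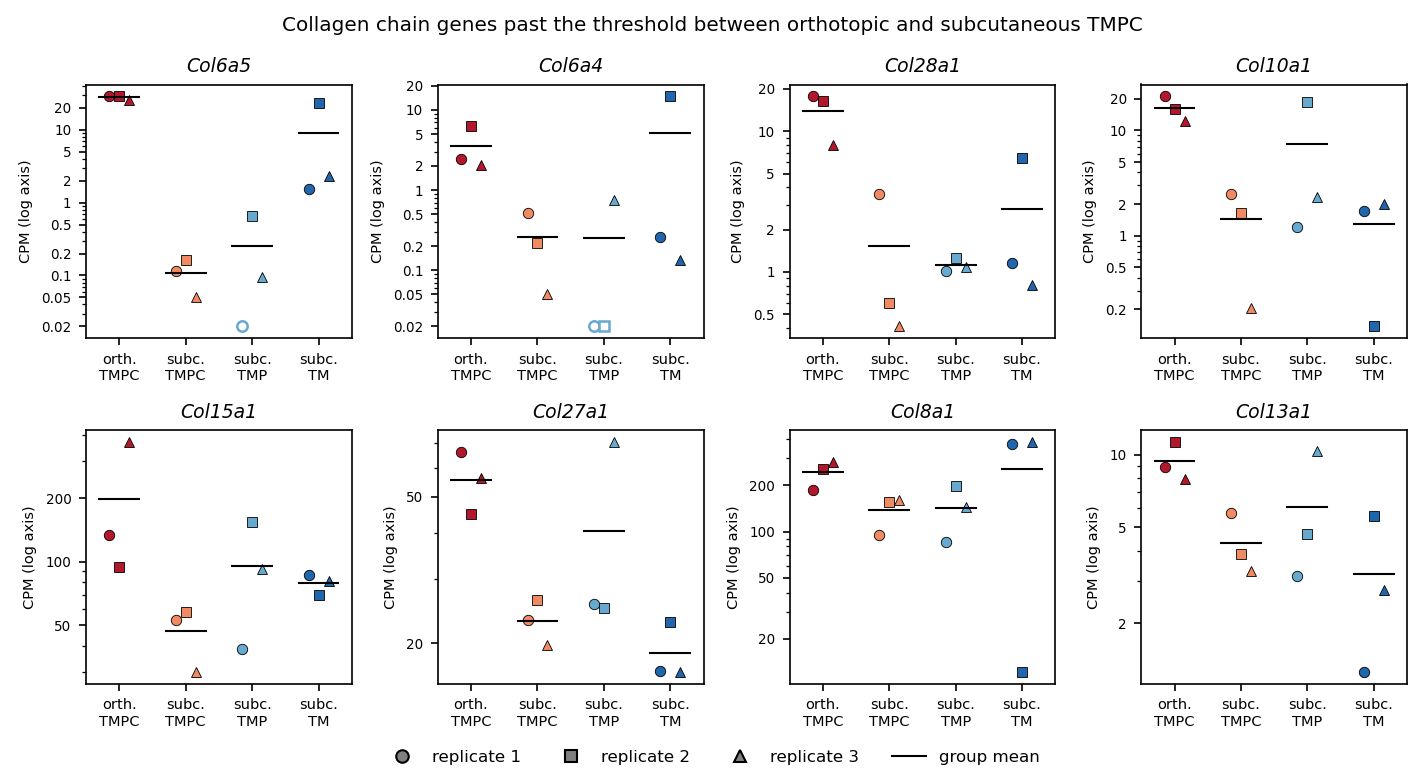
CPM on a log axis, in each library of all 4 groups, of the 8 collagen chain genes past the threshold between orthotopic and subcutaneous TMPC tumours, with the group mean as a line. Open symbols at the foot mark libraries with 0 counts. The orthotopic TMPC libraries lie above the subcutaneous TMPC libraries in each panel, and subcutaneous TM replicate 2 reaches 23.3 CPM for Col6a5 and 14.9 CPM for Col6a4.

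Among subcutaneous tumours TMP was compared with TM. Of 41 collagen chain genes tested, 3 were higher in TMP (7.32%, against 14.3% of all 15277 genes tested) and 2 lower (4.88%, against 13.4%) by edgeR, both shares below those of all genes. The groups did not overlap for 8 genes that were higher in TMP (19.5%, against 28.2% of all genes) and 3 that were lower (7.32%, against 22.5%). DESeq2 called 3 of 42 higher (7.14%) and 5 lower (11.9%), against 16.4% and 18.1% of all genes. The median log2 fold change was -0.01, and -0.07 over all genes. The 3 rises, Col11a2, Col2a1 and Col5a3, were among the 11 fibrillar genes tested. Col11a1 and Col27a1, fibrillar genes also known from cartilage, did not pass. Their log2 fold changes were 0.54 and 1.04 (adjusted p = 0.755 and 0.0895 by edgeR). The abundant Col1a1, Col1a2 and Col3a1 did not pass either.

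Col11a2 (chr17:34039437-34066685, plus strand), a chain of cartilage fibrils, had 10.6, 17.2 and 19.9 CPM in TMP, against 4.43, 4.90 and 4.06 CPM in TM tumours. The groups were well apart, and the log2 fold change was 1.78 ± 0.32 (SE, adjusted p = 0.00817 by edgeR), past the threshold in all 15 alternative fits. Col5a3 (chr9:20770050-20815067, minus strand), the third chain of type V collagen, had 100, 177 and 122 CPM in TMP, against 72.8, 78.7 and 86.6 CPM in TM. Its log2 fold change was 0.69 ± 0.21 (SE, adjusted p = 0.0430 by edgeR). The Col2a1 values given above amount to a log2 fold change of 7.06 ± 1.96 (SE, adjusted p = 0.0319 by edgeR). The ratio of its summed counts per library size was 153, with an exact 95% interval of 80.3 to 335 for counting error only, and without TMP replicate 3 the log2 fold change was 4.01 (adjusted p = 0.0994 by edgeR).

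Col20a1 (chr2:180986535-181018363, plus strand), a FACIT, had 2.17, 5.55 and 2.51 CPM in TMP, against 16.7, 12.1 and 8.03 CPM in TM. All TMP libraries were below all TM libraries, and the log2 fold change was -1.90 ± 0.51 (SE, adjusted p = 0.0284 by edgeR). Col6a5 had 0, 12 and 2 counts in TMP, or 0, 0.659 and 0.0948 CPM, against 30, 337 and 52 counts in TM, or 1.56, 23.3 and 2.35 CPM. The groups did not overlap, but TM replicate 2 gave most of the TM counts. Its log2 fold change was -5.21 ± 1.5 (SE, adjusted p = 0.0360 by edgeR), and the ratio of its summed counts per library size was 0.0334 (exact 95% interval 0.0181 to 0.0566, for counting error only). Without TM replicate 2 the log2 fold change was -2.96 (adjusted p = 0.0660 by edgeR).

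Leaving out TM replicate 2, the library with few epithelial and many adipocyte markers, changed the calls of the abundant genes. The calls were then 2 higher and 6 lower, against 16.0% and 15.1% of all genes. Col11a2 and Col20a1 were kept. Col2a1, Col5a3 and Col6a5 were lost, with adjusted p between 0.0526 and 0.0660 by edgeR. Col9a1 was added among the higher genes and Col1a1, Col1a2, Col8a1, Col4a6 and Col26a1 among the lower. The log2 fold change of Col1a1 was then -1.09, against -0.57 ± 0.72 with all libraries, and that of Col1a2 was -1.26, against -0.77 ± 0.65 (adjusted p = 0.0272 and 0.0213 by edgeR without the library). For Col4a6, the chain behind the pair ratio above, it was -4.50, against -3.93 ± 1.51. Leaving out other libraries also ended calls. Of the 5, Col11a2 alone was kept without TMP replicate 3, Col11a2 and Col6a5 without TM replicate 1, and Col11a2 and Col5a3 without TMP replicate 1. Col2a1 and Col5a3 were lost without TM replicate 3, Col5a3 without TMP replicate 2, and Col5a3 and Col6a5 without subcutaneous TMPC replicate 2 or 3, which enter the same fit. The log2 fold change of Col6a5 was -7.27 without TMP replicate 2. With every library in, 14.3% of all genes tested were higher in TMP and 13.4% lower. Leukocyte markers summed to 73.6 to 198 CPM in TMP and 660 to 3043 CPM in TM, with 4 of 4 lower in TMP. Of 10 fibroblast markers 2 (Dcn and Pi16) were lower, and of 6 skeletal muscle markers 2 were higher. The skeletal muscle markers summed to 11.5, 196 and 3.03 CPM in TMP, most of it in replicate 2, against 2.03 to 3.38 CPM in TM. The part of these cell types in the collagen differences was not tested.

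Subcutaneous TMPC was also compared with the same TM libraries, so that the values of both comparisons share them. Here 3 of 41 genes were higher in TMPC (7.32%, against 18.0% of all genes tested) and 4 lower (9.76%, against 17.8%) by edgeR. The groups did not overlap for 5 genes in each direction (12.2%), against 25.9% and 21.6% of all genes. DESeq2 called 5 of 42 in each direction (11.9%), against 20.2% and 20.8% of all genes. The median log2 fold change was -0.04, and -0.07 over all genes.

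Col4a3 (chr1:82586921-82722059, plus strand), a chain of the kidney and lung basement membrane, had 3.69, 4.30 and 9.37 CPM in TMPC, against 1.67, 0.345 and 1.44 CPM in TM. All TMPC libraries were above all TM libraries, with a log2 fold change of 2.26 ± 0.64 (SE, adjusted p = 0.0268 by edgeR). Col18a1 (chr10:77052178-77166548, minus strand), the multiplexin whose end fragment is endostatin, had 405, 118 and 160 CPM in TMPC, against 86.7, 82.3 and 80.2 CPM in TM. The TM libraries were close together and TMPC replicate 1 stood out. The log2 fold change was 1.39 ± 0.44 (SE, adjusted p = 0.0386 by edgeR), and 0.73 without that library (adjusted p = 0.0626 by edgeR). Col18a1 shares 8825 bp with Slc19a1 on the other strand, whose log2 fold change was 1.2 ± 0.29 (SE, adjusted p = 0.0163 by edgeR), and reads of the 2 genes cannot be told apart without strand. Col11a2, with 10.2, 10.0 and 7.02 CPM in TMPC against the TM values above, had a log2 fold change of 0.96 ± 0.32 (SE, adjusted p = 0.0453 by edgeR).

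Of the falls, Col23a1 (chr11:51289920-51583918, plus strand), a transmembrane collagen, had 4.73, 5.55 and 3.59 CPM in TMPC, against 17.2, 16.7 and 17.9 CPM in TM. The TM values lay close together and far above those of TMPC, and the log2 fold change was -1.96 ± 0.42 (SE, adjusted p = 0.0100 by edgeR). Col20a1 had 3.4, 3.16 and 1.64 CPM in TMPC, with a log2 fold change of -2.23 ± 0.51 (SE, adjusted p = 0.0131 by edgeR). Both stayed past the threshold in all 15 alternative fits. For Col6a5, with 6 counts over the 3 TMPC libraries, the log2 fold change was -6.37 ± 1.62 (SE, adjusted p = 0.0184 by edgeR), and -4.11 without TM replicate 2. The ratio of its summed counts per library size was 0.0145 (exact 95% interval 0.00528 to 0.0318, for counting error only). Col6a6 had 0.231, 0.435 and 0.205 CPM in TMPC, against 2.08, 2.97 and 1.22 CPM in TM, with a log2 fold change of -2.89 ± 0.93 (SE, adjusted p = 0.0424 by edgeR). Its call was lost when any TM or TMPC library was left out.

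Without TM replicate 2 the calls became 3 higher and 10 lower, against 20.7% and 20.1% of all genes. Col18a1 and Col6a6 were lost, Col9a1 was added among the higher genes, and 7 were added among the lower. These were the fibrillar Col1a1, Col1a2 and Col3a1, the FACITs Col12a1 and Col14a1, and Col8a1 and Col4a6. Their log2 fold changes were then -1.83, -1.89, -1.27, -1.55, -2.39, -1.48 and -4.21, against -1.33, -1.42, -0.86, -1.01, -1.90, -0.94 and -3.66 with all libraries, in that order of genes. The adjusted p-values by edgeR without the library ran from 0.00278 to 0.0425, against 0.0875 to 0.449 with all libraries. Leaving out TM replicate 3 ended 4 of the 7 calls, as did leaving out TMPC replicate 1 or TMPC replicate 2, and 3 ended without TM replicate 1 or TMPC replicate 3. Col4a3 was lost without TM replicate 3, TMPC replicate 2 or TMPC replicate 3, and Col6a5 without any of the TMPC replicates. Col11a2 and Col18a1 were lost without TMP replicate 2 or 3, which enter the same fit. With every library in, 18.0% of all genes tested were higher in TMPC and 17.8% lower. Leukocyte markers summed to 145, 86.6 and 101 CPM in TMPC, against 708, 3043 and 660 CPM in TM, and the 4 tested were all lower in TMPC. Of 10 fibroblast markers 3 (Dcn, Pi16 and Thy1) were lower in TMPC, and 9 had negative fold changes. The list summed to 1809 to 3062 CPM in TMPC and 2129 to 2317 CPM in TM. The only marker with a positive fold change, Fn1, was the largest part of the TMPC sums. It had 1564, 2541 and 1512 CPM in TMPC and 1150, 273 and 1010 CPM in TM. Of 8 endothelial markers 2 were lower, and of 6 skeletal muscle markers 3 were higher. Their part in these differences was not tested.

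**Figure D5:**
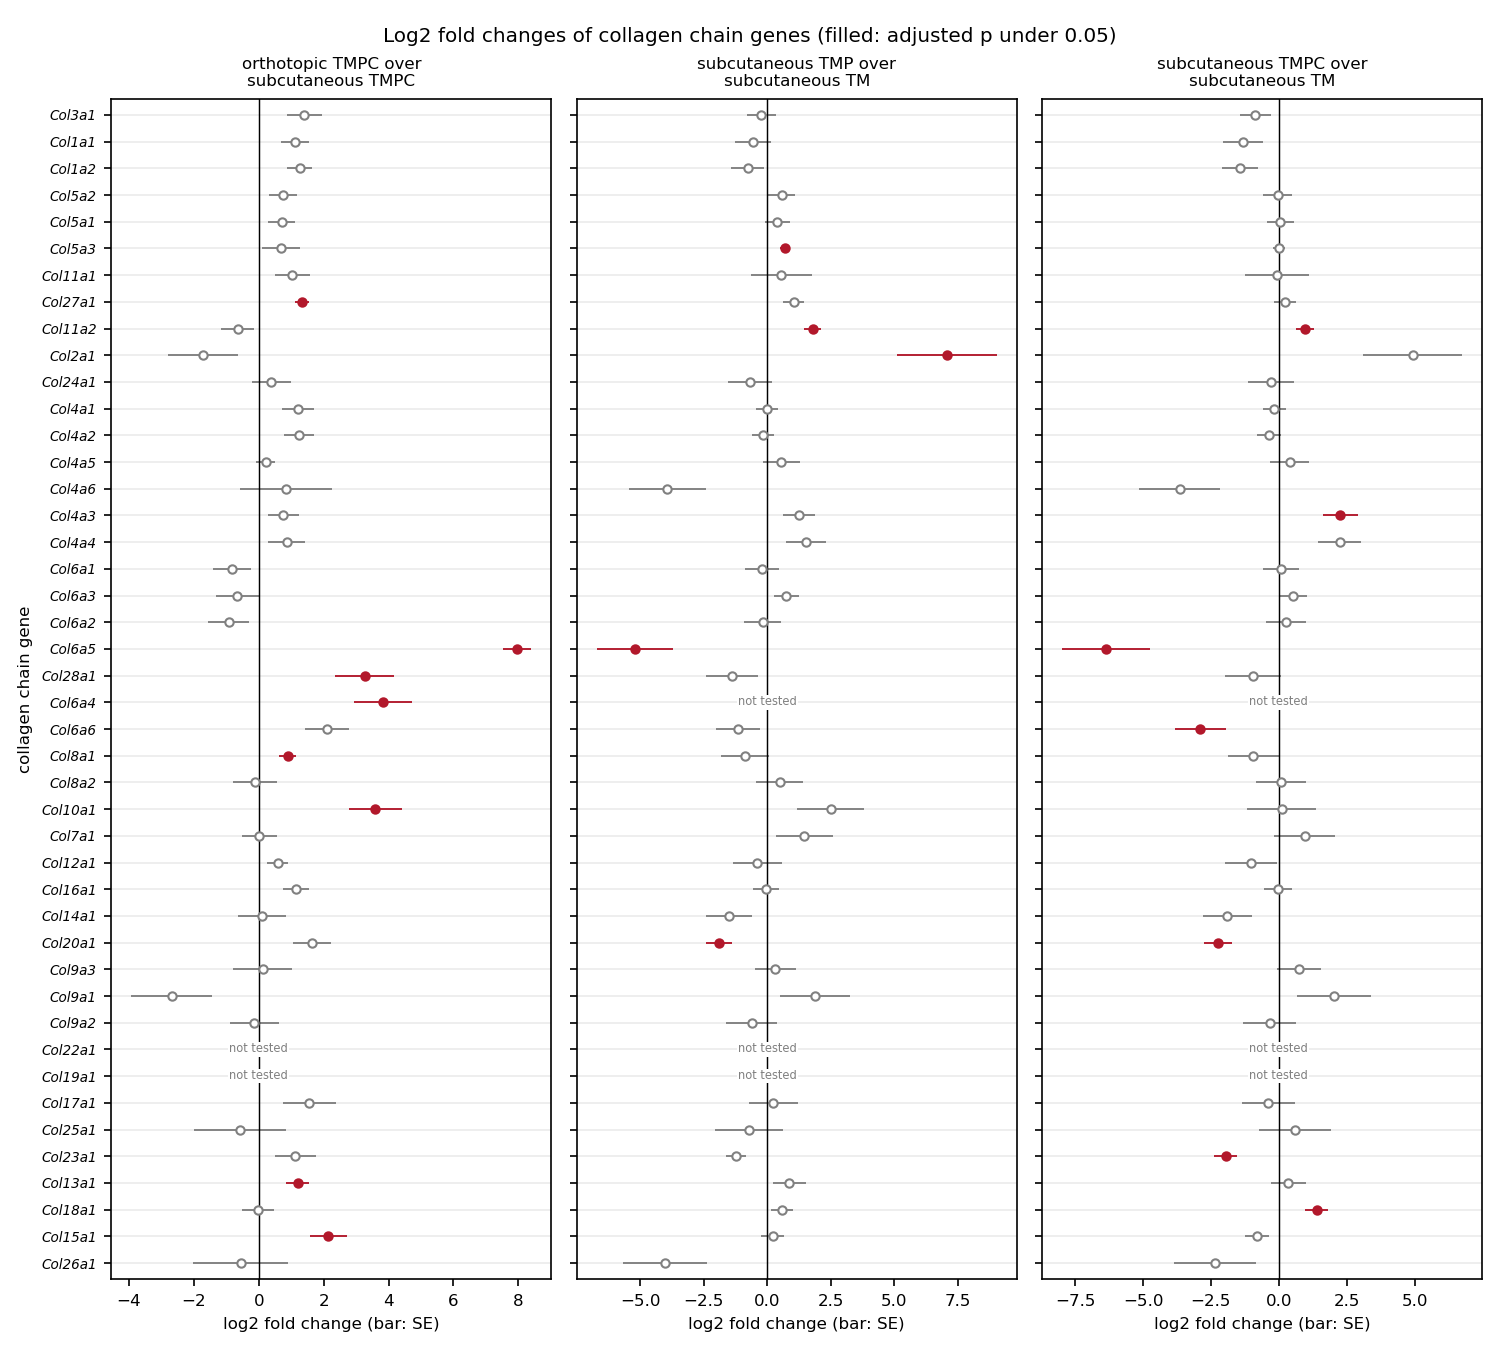
Log2 fold change with its SE for each collagen chain gene, in rows by class, in 3 comparisons, with filled points for an adjusted p under 0.05 by edgeR. Most points of the orthotopic comparison lie right of 0, with Col6a5 at 7.97, and the SE bars are widest for rare genes and in the comparisons with subcutaneous TM.

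Between subcutaneous TMPC and TMP, 0 of 41 collagen chain genes passed in either direction by edgeR, and 0% of all genes did. DESeq2 called 0 collagen chain genes as well, and 0.0545% and 0.0613% of all genes higher and lower. At an unadjusted p under 0.05 edgeR gave 2 (4.88%, against 3.04% of all genes), both of them fibrillar. Col11a2 had 10.2, 10.0 and 7.02 CPM in TMPC, against 10.6, 17.2 and 19.9 CPM in TMP, with a log2 fold change of -0.82 ± 0.31 (SE). Col5a3 had 76.6, 85.1 and 89.7 CPM in TMPC, against 100, 177 and 122 CPM in TMP, with a log2 fold change of -0.68 ± 0.21 (SE). In both genes the groups did not overlap, which held for 3 collagen chain genes lower in TMPC (7.32%, against 6.28% of all genes) and for Col4a3, which was higher (2.44%, against 6.18%). The median log2 fold change was -0.34, with 27 of 41 negative, and 0.01 over all genes. Among the 11 fibrillar genes 10 were negative.

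The genes that make, process and bind collagen were counted from lists of 20, 13 and 9 tested members. Between orthotopic and subcutaneous TMPC, where 14.0% of all genes were higher and 13.8% lower, the list of 20 that holds the hydroxylases, glycosyltransferases and chaperones had 2 higher and 0 lower, with a median log2 fold change of 0.07. Neither of the 2 is such an enzyme or chaperone. They were Creb3l1, a transcription factor of the secretory pathway known to act on type I collagen genes, and Mia3, which loads procollagen into transport carriers. Creb3l1 averaged 36.0 ± 7.08 CPM in orthotopic TMPC and 9.83 ± 1.29 CPM in subcutaneous TMPC (SD, n = 3 each), with a log2 fold change of 1.94 (adjusted p = 0.00872 by edgeR). Of the 13 procollagen proteases and crosslinking enzymes 3 were higher and 0 lower, with a median of 0.79: Loxl1 and Loxl4, of the lysyl oxidase family that crosslinks collagen, and Adamts2, which trims the end of procollagen. Adamts2 averaged 104 ± 57.3 CPM in orthotopic TMPC and 39.9 ± 6.69 CPM in subcutaneous TMPC, with a log2 fold change of 1.45 (adjusted p = 0.0375 by edgeR). Of the 9 collagen receptors 3 were higher and 0 lower, with a median of 0.40. With lists this short, such counts are no result about the list. These were the collagen-binding integrin chains Itga1 and Itga2 and the inhibitory leukocyte receptor Lair1. Itga2 averaged 34.0 ± 6.75 CPM in orthotopic TMPC and 6.73 ± 2.91 CPM in subcutaneous TMPC, with a log2 fold change of 2.40 (adjusted p = 0.0109 by edgeR).

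Against TM, 4 hydroxylase genes, Plod2, P4ha1, P4ha2 and P3h2, were higher in both TMP and TMPC, and Creb3l1 and Mia3 were lower in both. These are 4 higher and 2 lower of the 20 tested in each comparison, with median log2 fold changes of -0.05 in TMP and 0.08 in TMPC. Of all genes 14.3% were higher and 13.4% lower in TMP, and 18.0% and 17.8% in TMPC. The other hydroxylases did not pass, among them Plod1, Plod3, P4ha3, P3h1 and P3h3. Plod2, a lysyl hydroxylase, averaged 109 ± 29.0 CPM in TMPC, 139 ± 35.4 CPM in TMP and 20.3 ± 6.62 CPM in TM tumours (SD, n = 3 each). Its log2 fold change was 2.72 in TMP and 2.37 in TMPC over TM (adjusted p = 0.00219 and 0.00178 by edgeR). P4ha2 and P4ha1, subunits of prolyl hydroxylase, had log2 fold changes of 2.19 and 1.33 in TMP and 2.03 and 1.60 in TMPC over TM, all past the threshold. Creb3l1 was lower, by a log2 fold change of -1.89 in TMPC over TM (adjusted p = 0.00736 by edgeR). Of the 13 proteases and crosslinking enzymes 1 was higher and 1 lower in TMP, and 1 higher and 2 lower in TMPC, with medians of -0.13 and -0.47, and so not above the shares of all genes. Pcolce2, an enhancer of procollagen trimming, was the higher gene in both, and Tll1, a protease of the same step, was lower in both, joined by Loxl3 in TMPC. Of the 9 receptors 0 were higher in either group, 1 was lower in TMP and 2 in TMPC, with medians of -0.45 and -0.81. Lair1 was lower in both, with 5.94 ± 1.92 CPM in TMPC, 6.97 ± 4.94 CPM in TMP and 54.2 ± 47.4 CPM in TM, and Itga2 in TMPC. No gene of the 3 lists (0) passed between TMPC and TMP.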

How the data were processed

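RNA was read as 150 bp paired reads from about 1 cm3 of each tumour, per the labels' protocols. The authors deposited raw counts per gene in 2 tables with the comparisons of their own, which were not used. STAR 2.6.0, the mm10 build and DESeq2 are named in the submitters' processing notes. The sources used here name no read counter, annotation or strand setting. The symbol columns of the tables differ from entry 12291 on. No collagen chain entry (0) is affected, the last being entry 5087, and symbols were taken by position from the table of the site comparison. The 3 subcutaneous TMPC libraries hold equal counts in both tables and were used once. The 15 columns of per-sample values that the authors normalised with DESeq2 were not used.

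From the deposited counts, edgeR 4.0.16 in R 4.3.3 was run with TMM factors, filterByExpr and the quasi-likelihood test, with Benjamini-Hochberg adjustment over all genes tested at a threshold of 0.05. The 9 subcutaneous libraries shared 1 fit (6 residual degrees of freedom), and the 6 TMPC libraries of the site comparison another (4). For a single value, 3 libraries against 3 cannot give an exact permutation p under 0.1, so no such test was made. DESeq2 1.42.0, other scalings, no filter, a replicate block, only the 2 groups compared and leaving out each library were alternatives. Fits were tested on simulated data. Exon lengths are GENCODE unions on mm10, and promoters come from RefSeq. Intervals and limits of 3 counts hold for counting error alone, because without molecular identifiers several reads can stem from 1 molecule.

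Genes were named by a rule: the 10 highest mean CPM per kb, in each comparison the 6 smallest adjusted p and 3 largest fold changes past the threshold, and Col2a1, Col7a1, Col10a1 and Col17a1. From each list of other collagen genes the rule took the 3 smallest adjusted p in each comparison. Collagen chain genes as the subject, and so the members, and all gene lists were chosen with earlier results of these data known, although the rule for members reads only the symbol, and the gastric epithelium list was added after the files were seen.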

Additional observations from a re-analysis of the deposited data

How the results depend on the processing

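In orthotopic against subcutaneous TMPC the 8 higher collagen chain genes became 14 with DESeq2, 5 with the replicate number as a block, and 2 to 8 with each library left out. In TMP against TM the 3 higher genes became 1 with the block, 1 with only the 2 groups in the fit, and 1 to 3 with each library left out. The 2 lower became 5 with DESeq2, 1 with only the 2 groups, and 0 to 6 with each library left out. In TMPC against TM the count of 3 higher genes became 0 with the block, 5 with DESeq2 and 0 to 3 with each library left out. With only the 2 groups it was 1, Col2a1, and the calls of Col11a2, Col18a1 and Col4a3 were all lost. The 4 lower became 2 to 10 with each library left out. In TMPC against TMP the count was 0 under every alternative run. The cause of these changes was not tested. The labels do not say whether the replicate numbers pair libraries. Deviations of same-numbered libraries from their group means had correlations of -0.226 to 0.275. With 3 libraries a group these cannot settle whether libraries are paired, so the block values are given without a reading.

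Median ratios with the longest transcript as length were 1.09 for Col1a2 to Col1a1, 0.622 for Col4a2 to Col4a1, 0.571 for Col6a2 to Col6a1 and 1.85 for Col5a2 to Col5a1, against 0.518, 0.684, 0.360 and 1.29 with union exons, by construction. With each library left out, the log2 fold change of Col3a1 in TMP over TM ran from -0.65 (without TM replicate 2) to 0.16 (without TM replicate 3) and was 0.10 without TMP replicate 1. That of Col12a1 ran from -0.95 (without TM replicate 2) to 0.10 (without TM replicate 3), none of them past the threshold. Genes under about 1 CPM rest on few counts, and 3 libraries a group limit every test.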
